A study of Rattus norvegicus with 88 samples.

Results

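The 6 genes described here are expressed by astrocytes: *Gfap* (ENSRNOG00000002919), *Aqp4* (ENSRNOG00000016043), *Slc1a2* (ENSRNOG00000005479), *Slc1a3* (ENSRNOG00000016163), *S100b* (ENSRNOG00000001295) and *Glul* (ENSRNOG00000049560). They were chosen by a list of identifiers, as classical markers of the cell type, and all 6 were found among the 17252 genes measured by RNA-Seq in the infralimbic cortex (IL) of Heterogeneous Stock (HS) rats. The symbols come from the list that named the identifiers, because the expression data carry identifiers only and the RefSeq table at hand, which holds all 6 symbols, pairs 0 of those identifiers with a symbol. HS rats are an outbred stock bred from several inbred strains. Bilateral IL tissue was cut out of frozen sections and gave 1 library of polyadenylated RNA per rat, from untreated animals that had shared cages. The labels name no treatment or genotype groups, so the groups used here are sex (40 females and 41 males) and rat batch (16 rats of batch 2, 25 of batch 3, 24 of batch 4, 1 of batch 5 and 15 of batch 6). The ages of single rats were not among the labels.

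Astrocytes are the glial cells that take up neurotransmitter, buffer ions and water, and contact both synapses and blood vessels. Glutamate released by neurons is cleared into astrocytes by 2 transporters, GLT-1 (the product of *Slc1a2*) and GLAST (*Slc1a3*), and glutamine synthetase (*Glul*) converts it to glutamine, which is returned to neurons. *Gfap* encodes the intermediate filament protein of the astrocyte cytoskeleton, which rises when astrocytes become reactive, *Aqp4* the water channel of the endfeet that wrap vessels, and *S100b* a calcium-binding protein that oligodendrocytes can also make. In a tissue homogenate fewer astrocytes and less RNA per astrocyte cannot be told apart, which holds for every level below.

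Values are log2 of the upper-quartile adjusted read count plus 1, and depth, estimated from the steps of the low values, ranged from 5.91 to 31.8 Mreads (10 to the power of 6 reads; median 17.1, next to lowest 12.2). The column names fall into 3 alphabetical stretches, called column runs here, of 22, 16 and 43 libraries. What a run stands for is not labelled, and it was treated as a possible technical batch. Rat batch and run overlapped heavily: 15 of 16 rats of batch 2 were in run 1 and 1 in run 2, all of batches 4, 5 and 6 were in run 3, and batch 3 was spread over all 3 (7, 15 and 3 rats). Median depth was 16.8, 15.2 and 19.2 Mreads in runs 1, 2 and 3. No relation to log2 depth was detected for any of the 6 genes over the 81 rats once batch, run and sex were removed (Pearson r between -0.12 and 0.14, Spearman rho between -0.19 and 0.18, smallest adjusted permutation p = 0.395 over these relations, two-sided). Without the 2 rats of most extreme depth, Pearson r lay between -0.23 (*Slc1a2*) and 0.16 (*S100b*), and these coefficients were not tested.

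All 6 astrocyte genes were detected in each of the 81 libraries, and the lowest value of any of them was 362 adjusted counts. Levels are compared between rats and not between genes, since gene lengths of this build were not used here. *Slc1a2* varied most, from 362 to 2070 adjusted counts, a 5.71-fold range around a median of 1180. *Gfap* followed with a 3.31-fold range, from 10.74 to 12.46 with a median of 11.61 on the log2 scale. *Glul* ranged from 13.38 to 14.58 (median 13.97) and *Aqp4* from 11.97 to 12.93 (median 12.47), which is 2.29-fold and 1.95-fold. The other glutamate transporter, *Slc1a3*, and *S100b* were the steadiest, with 1.69-fold and 1.72-fold ranges. The lowest *Slc1a2* and the lowest *Aqp4* values were in the same animal, rat 15 of batch 2 (rats are numbered within a batch), and the highest *Gfap* and the highest *Glul* values were both in rat 1 of batch 2.

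After rat batch, column run and sex were removed, the SD between rats was 0.343 ± 0.043 for *Slc1a2* (log2, jackknife SE, n = 81), 0.298 ± 0.027 for *Gfap*, 0.188 ± 0.018 for *Aqp4*, 0.174 ± 0.016 for *Glul*, 0.138 ± 0.012 for *S100b* and 0.137 ± 0.016 for *Slc1a3*. Counting error at the median read number would give an SD between 0.012 and 0.043, well under each of these. The spread was set beside that of the genes within 0.5 log2 units of the same mean level. *Gfap* varied more than 98.9% of 986 such genes and *Slc1a2* more than 98.0% of 2264. *Aqp4* and *Glul* each varied more than 92.0% of the genes of like level (488 and 113), while *Slc1a3* (71.1% of 187) and *S100b* (68.7% of 131) lay nearer to the median of their peers. A few rats weighed on these values: by the scaled median absolute deviation, which gives extreme rats little weight, the spread was 0.248 for *Slc1a2* and 0.235 for *Gfap*, and these exceeded 95.9% and 98.1% of the same genes' values. By this measure the share was 90.2% for *Aqp4*, 92.9% for *Glul*, 80.7% for *Slc1a3* and 86.3% for *S100b*, so the 6 genes stood closer together.

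**Figure D1:**
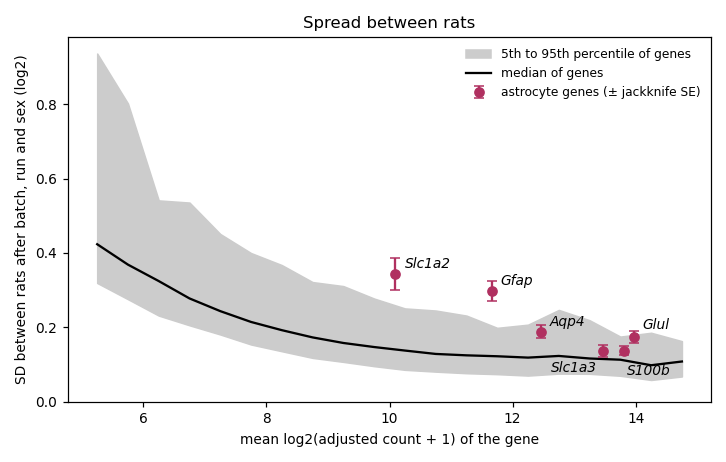
The SD of log2 values between the 81 rats after removal of rat batch, column run and sex (vertical axis) against the mean log2 level of the gene (horizontal axis), with jackknife SE bars for the 6 astrocyte genes. The grey band spans the central genes of each level and the line is their median; *Gfap* and *Slc1a2* lie above the band, and *Slc1a3* and *S100b* within it.

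The 3 terms together accounted for 48.1% of the variance of *Slc1a2* over the rats, 39.7% of *Glul*, 38.1% of *Gfap* and 32.4% of *Aqp4*, but for only 17.7% of *S100b* and 10.4% of *Slc1a3*. The median of the 13048 genes whose log2 level averaged 5 or more was 26.9%. For *Slc1a2*, column run on its own accounted for 47.5% and rat batch on its own for 42.4%, so that either term alone accounted for most of what the 3 did. For *Glul* rat batch on its own accounted for 39.3% and run for 14.9%.

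**Figure D2:**
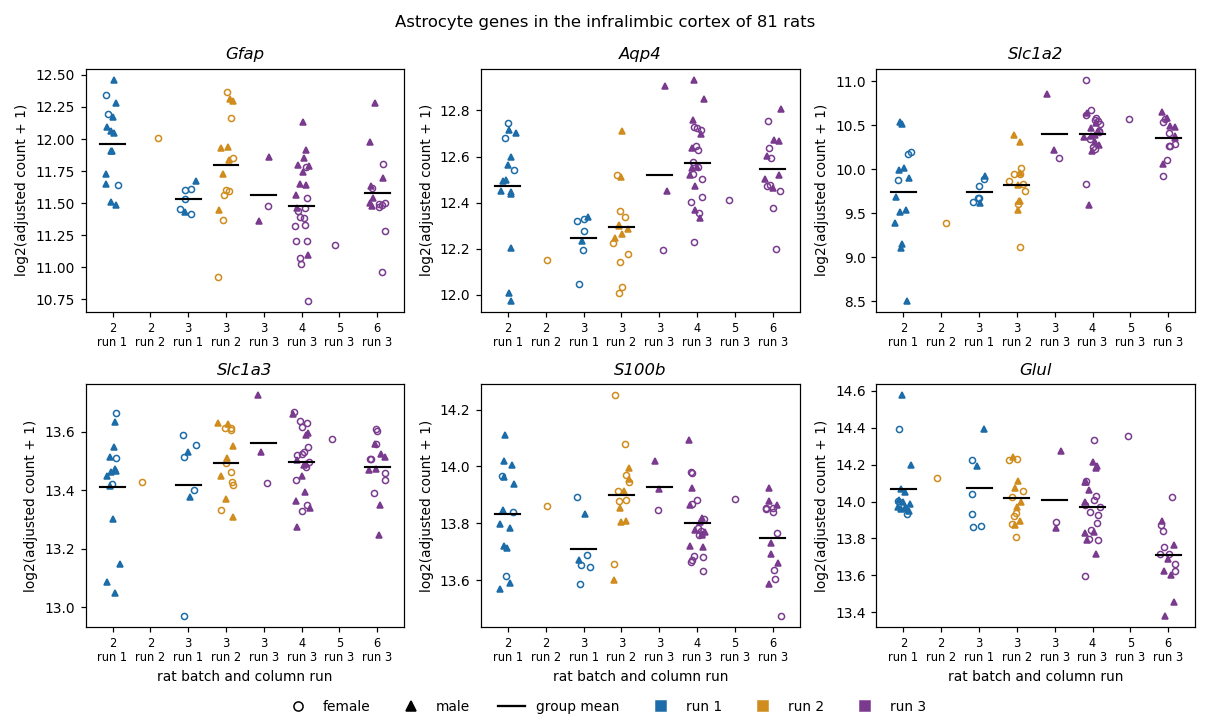
Level of each astrocyte gene, as log2 of the adjusted count plus 1 (vertical axes, which do not start at 0), in the 81 rats by rat batch and column run (horizontal axes). Open circles are females, triangles males, colours mark the run and bars the group mean. *Slc1a2* lies higher in the rats of run 3, including the 3 of batch 3, and *Glul* lies lowest in batch 6.

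The first comparison was between rat batches 2, 3, 4 and 6, with sex as a covariate and the single rat of batch 5 left out (80 rats, limma moderated F test, Benjamini-Hochberg adjustment over all 17252 genes). It called 4 of the 6 astrocyte genes, a share close to the background, since 57.6% of all genes passed. In a fit limited to the 13048 genes whose log2 level averaged 5 or more, 69.6% passed, again with 4 of the 6. *Slc1a2* averaged 9.72 ± 0.54 in batch 2 (SD, n = 16), 9.87 ± 0.34 in batch 3 (n = 25), 10.40 ± 0.28 in batch 4 (n = 24) and 10.36 ± 0.21 in batch 6 (n = 15). Batches 4 and 6 were thus higher than batches 2 and 3, by 0.58 ± 0.08 (SE, limma adjusted p = 2.56e-08), and the means within each of these pairs of batches lay closer than their SDs. *Aqp4* was higher in the same direction by 0.19 ± 0.04 (limma adjusted p = 8.0e-05). *Gfap* went the other way, from 11.97 ± 0.30 and 11.69 ± 0.34 in batches 2 and 3 to 11.48 ± 0.33 and 11.58 ± 0.30 in batches 4 and 6, a difference of -0.27 ± 0.07 (limma adjusted p = 0.00104). *Glul* also fell, by 0.21 ± 0.04 on the log2 scale (limma adjusted p = 5.98e-07). *Slc1a3* (0.04 ± 0.03, limma adjusted p = 0.453) and *S100b* (-0.07 ± 0.03, limma adjusted p = 0.213) did not pass. The p-values are those of the F test over the 4 batches. The called genes moved in both directions, and the ranges of the batches overlapped for every one of them. With column run as a further covariate, where 2.76% of all genes passed, the difference of *Slc1a2* was 0.02 ± 0.21 (limma adjusted p = 0.974), that of *Aqp4* -0.01 ± 0.12 (0.661) and that of *Gfap* -0.15 ± 0.19 (0.342), and *Glul* was the only one of the 6 that still passed (limma adjusted p = 0.0157).

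Column run was examined next. The 43 rats of run 3 had *Slc1a2* values from 9.59 to 11.02 (median 10.41), against 8.50 to 10.53 (median 9.75) in the 22 rats of run 1 and 9.11 to 10.39 (median 9.83) in the 16 of run 2. In adjusted counts the means were 1358 ± 232 in run 3, 894 ± 268 in run 1 and 910 ± 201 in run 2 (SD). Of the 43 rats of run 3, 42 lay above the median of the other 38 and 13 lay above all of them, so the groups overlapped. *Aqp4* had 40 of the 43 above that median and 6 above all the others. For *Glul* the pattern was inverted, with 13 of the 43 above the median of runs 1 and 2 and 16 below all of their rats. Within run 3, however, mean *Glul* was 13.71 in batch 6, 13.97 in batch 4 and 14.01 in the 3 rats of batch 3. It was 14.07 in run 1 and 14.02 in run 2, so batch 6 was the low group. For *Gfap* the count above that median was 9, for *S100b* 15 and for *Slc1a3* 29. Such counts were not made for genes other than the 6. With sex as the only covariate 5 of the 6 genes differed between runs, all but *Slc1a3*, where 61.4% of all genes did.

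Only batch 3, together with the single rat of batch 2 in run 2, tells run from rat batch. Given rat batch and sex, 0 of the 6 genes passed the test of run over 80 rats, although 16.8% of all genes did. The share was 22.9% in a fit limited to genes whose log2 level averaged 5 or more, also with 0 of the 6. In the fit of all genes, 2 of the 6 had an unadjusted p under 0.05 (31.2% of all genes). Run 3 minus the mean of runs 1 and 2, with the limma adjusted p of that difference, was 0.60 ± 0.21 for *Slc1a2* (0.0788), 0.22 ± 0.11 for *Aqp4* (0.291), 0.11 ± 0.08 for *Slc1a3* (0.502), 0.11 ± 0.08 for *S100b* (0.490), -0.04 ± 0.11 for *Glul* (0.890) and -0.16 ± 0.18 for *Gfap* (0.679). The F test over the 3 runs gave limma adjusted p-values of 0.0813 for *Slc1a2*, 0.0642 for *S100b* and between 0.252 and 0.900 for the other 4. In simulated data with 100 genes shifted by 2 residual SDs and 100 by 1 SD among 17252, this test recovered 11% and 1% of them. Many more genes passed in the real data, which makes the adjustment less strict there, so these shares do not give its power here. That 0 of the 6 passed does not show that they were alike between runs. Within the 25 rats of batch 3 alone, the values of *Slc1a2* in the 3 rats of run 3 were 10.13, 10.21 and 10.85, against medians of 9.68 in the 7 rats of run 1 and 9.83 in the 15 of run 2. Of those 22 rats, 2 reached the lowest of the 3. The difference of run 3 from the others was 0.57 ± 0.16 (limma adjusted p = 0.0352). By the F test over the 3 runs *Slc1a2* was the only one of the 6 genes past the threshold (limma adjusted p = 0.0398), where 16.9% of all genes passed. In the 25 fits that left out 1 rat each, *Slc1a2* passed this F test in 19. Without rat 20 of batch 3, which held the value of 10.85, the difference was 0.37 (limma adjusted p = 0.321). The threshold was also narrowly missed, with adjusted p-values between 0.0501 and 0.0571, without any one of rats 2, 3, 6, 11 and 12 of batch 3, where the difference stayed between 0.54 and 0.68. *S100b* (limma adjusted p = 0.0533 by the F test in batch 3) passed in 5 of those 25 fits. Without rat 20 of batch 3 the differences of the other genes were also the lowest of these fits. They were then 0.04 for *Aqp4*, 0.02 for *Slc1a3*, 0.08 for *S100b*, -0.18 for *Glul* and -0.26 for *Gfap*. The highest in these fits were 0.33 for *Aqp4* and 0.17 for *Slc1a3*.

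**Figure D3:**
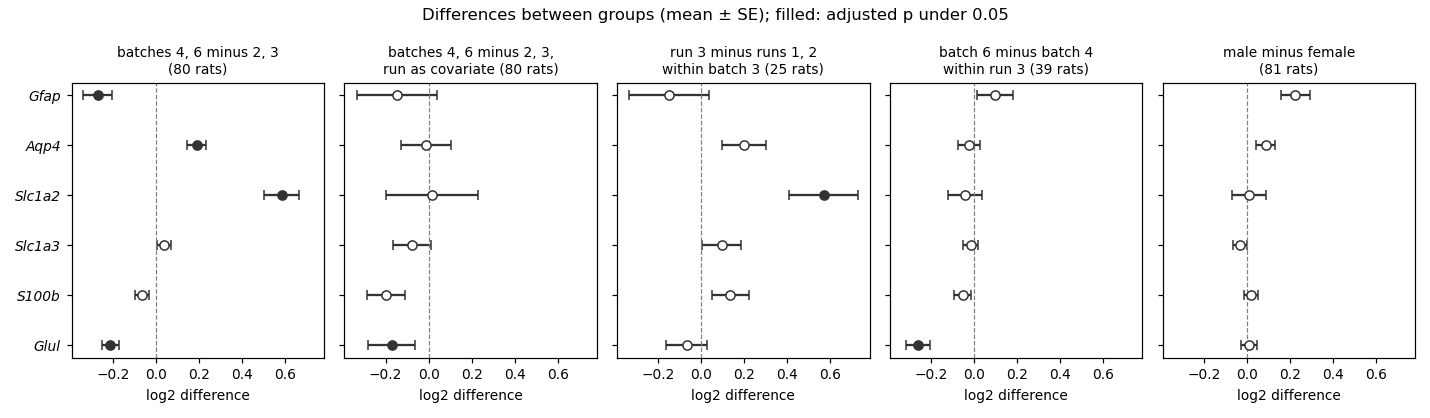
Differences in log2 level (horizontal axis, ± SE) for the 6 astrocyte genes in 5 contrasts, from left to right between rat batches, between rat batches with run as a covariate, between runs within batch 3, between batches 6 and 4 within run 3, and between the sexes. Filled points had a limma adjusted p under the threshold of 0.05 for the test named in the text; *Slc1a2*, *Aqp4*, *Gfap* and *Glul* are filled in the first contrast and *Glul* is the only filled one within run 3.

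Batches 4 and 6 share a run, so their comparison is free of the run. Among these 39 rats *Glul* was the only one of the 6 genes that differed, where 3.46% of all genes passed. In batch 4 *Glul* ranged from 13.59 to 14.33 (median 13.97) and in batch 6 from 13.38 to 14.03 (median 13.72). The ranges overlapped, and batch 6 minus batch 4 was -0.26 ± 0.06 (limma adjusted p = 0.00784), or 13463 ± 1539 adjusted counts against 16146 ± 1980 (SD). *Glul* passed in all 39 fits that left out 1 rat (limma adjusted p between 0.00482 and 0.0181). The 2 glutamate transporters that feed the same cycle differed between batches 6 and 4 by -0.04 ± 0.08 (*Slc1a2*) and -0.02 ± 0.03 (*Slc1a3*), and neither passed (limma adjusted p = 0.838 and 0.865). The single rat of batch 5, also in run 3, had a *Glul* value of 14.36, above all 39. Within run 1, *Gfap* was lower in the 7 rats of batch 3 (11.53 ± 0.10, SD) than in the 15 of batch 2 (11.96 ± 0.31), as was *Aqp4* (12.25 ± 0.10 against 12.47 ± 0.24). Their unadjusted limma p-values were 0.00165 and 0.00948, but neither passed the adjustment (0.874 and 0.992), and neither did any other gene of the table (0 of 17252, with 4.54% at an unadjusted p under 0.05).

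*Gfap* averaged 11.80 ± 0.30 in the 41 males (lowest 11.09, median 11.79, highest 12.46) and 11.51 ± 0.36 in the 40 females (10.74, 11.48 and 12.37). The sexes overlapped over most of the range. With rat batch as a covariate the difference was 0.23 ± 0.07 (limma adjusted p = 0.244), and 0 of the 6 genes passed where 0.197% of all genes did. At an unadjusted p under 0.05 there were 2, *Gfap* (0.00129) and *Aqp4* (0.09 ± 0.04, 0.0447), where 7.76% of all genes reached that level. In simulated data with 100 genes shifted by 1 residual SD and 100 by 2, this test recovered 81% of the former. Fewer genes passed in the real data, which makes the adjustment stricter there, so this share does not give its power here. Without a covariate *Gfap* passed (0.29 ± 0.07, limma adjusted p = 0.0464, 0.278% of all genes). Of the 16 rats of batch 2, the batch with the highest *Gfap*, 12 were male. Whether this uneven spread of the sexes accounts for the call was not tested. Within single batches the male minus female difference of *Gfap* was -0.10 ± 0.16 in batch 2, 0.19 ± 0.12 in batch 3, 0.39 ± 0.10 in batch 4 and 0.28 ± 0.13 in batch 6, none of which passed over all genes. The test of whether the sex difference varied with rat batch called 0 of the 6 astrocyte genes and 0 of 17252 genes (smallest limma adjusted p = 0.996), with 3.08% of genes but 0 of the 6 at an unadjusted p under 0.05. For *Slc1a2*, *Slc1a3*, *S100b* and *Glul* the differences between the sexes lay between -0.03 and 0.02.

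Whether the astrocyte genes rose and fell together from rat to rat was examined on the values left after rat batch, column run and sex were removed, by correlation with 100000 two-sided permutations of rats within each combination of batch and run, and p-values were adjusted over the 15 pairs. Positive coefficients were found in 12 of the 15 pairs (median r = 0.17), and 7 passed by Pearson and 5 by Spearman correlation. All pairs share libraries and their depth. Coefficients of this size were not rare in these data: of all genes with an average log2 level of 5 or more, the share with r of at least 0.3 was 18.2% for *Slc1a2*, 15.6% for *S100b*, 8.79% for *Slc1a3*, 7.17% for *Aqp4*, 4.98% for *Gfap* and 3.39% for *Glul*.

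The highest coefficients were those of *Aqp4*, which passed by Pearson correlation in 3 pairs, while *Slc1a3* passed in 4. *Aqp4* co-varied with *Gfap* (r = 0.528, permutation adjusted p = 0.00015, unadjusted p = 1e-05, the smallest these permutations can give; rho = 0.494, adjusted p = 0.00015) and with *Slc1a3* (r = 0.503, permutation adjusted p = 0.00015; rho = 0.483, adjusted p = 0.00015). Among 13047 genes ordered by their correlation with *Aqp4*, *Gfap* stood 35th, *Slc1a3* 56th and *Slc1a2* 143rd. In the orders of the partners *Aqp4* stood 55th for *Gfap* and 90th for *Slc1a3*, but only 1506th for *Slc1a2*, with which 17% of genes were correlated as strongly in either direction. The coefficient of *Gfap* and *Aqp4* was 0.336, 0.729 and 0.514 within runs 1, 2 and 3 (unadjusted permutation p = 0.179, 0.00169 and 0.00085) and 0.491 without the 2 rats farthest from the median of *Gfap*. On the values as deposited, with no term removed, it was 0.263 and did not pass (permutation adjusted p = 0.0928). For *Aqp4* and *Slc1a3* it was 0.601, 0.229 and 0.510 within the runs (p = 0.00304, 0.41 and 0.00185) and 0.413 without the 2 farthest rats. On the residuals both pairs kept their call in each of the 81 repeats that left out 1 rat (highest permutation adjusted p = 0.00112). Each such repeat used 20000 permutations, so p-values near the threshold are less exact there. *Aqp4* and *Slc1a2* also co-varied (r = 0.438, permutation adjusted p = 0.0041; rho = 0.399, adjusted p = 0.00371), with 0.661 and 0.424 within runs 1 and 3 but -0.307 in run 2 (p = 0.00279, 0.0109 and 0.267). Without rat 15 of batch 2, the animal lowest for both, r was 0.352, and without the 2 farthest rats it was 0.312.

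*Gfap* and *Slc1a3*, although each followed *Aqp4*, showed no relation to one another over the 81 rats (r = -0.00085, permutation adjusted p = 0.995; rho = 0.00548). Within runs their coefficient was 0.0547, -0.444 and 0.141 (p = 0.805, 0.0969 and 0.388). Likewise, no relation of *Gfap* passed to *Slc1a2* (r = -0.0715, adjusted p = 0.665), to *Glul* (r = 0.078, adjusted p = 0.62) or to *S100b* (r = 0.167, adjusted p = 0.294). The last of these rested partly on rat 19 of batch 3, which had the highest *S100b* value of all, 14.25, and without which r was 0.297 and passed (permutation adjusted p = 0.0268).

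Among the genes of the glutamate-glutamine cycle, *Slc1a3* and *Glul* co-varied (r = 0.360, permutation adjusted p = 0.00792; rho = 0.347, adjusted p = 0.00765; 0.414, 0.675 and 0.280 within the runs, with p = 0.0537, 0.00672 and 0.0896). Without the 2 farthest rats r was 0.392, and on the values as deposited it was 0.219 and did not pass (permutation adjusted p = 0.0769). The 2 transporters were related to each other more weakly (r = 0.317, permutation adjusted p = 0.0269; rho = 0.225, adjusted p = 0.123). That call was lost when any one of 5 rats was left out (rats 7, 15 and 18 of batch 2, rat 20 of batch 3 and rat 24 of batch 4; adjusted p between 0.05 and 0.0834), and within runs the coefficient was 0.546, -0.305 and 0.171 (p = 0.00463, 0.271 and 0.328). *Slc1a2* and *Glul* had r = 0.142 (permutation adjusted p = 0.354). As many as 32.2% of genes were correlated as strongly with *Slc1a2*, and 15.4% with *Slc1a3*, as the 2 transporters with each other. *S100b* co-varied with *Slc1a3* (r = 0.310, permutation adjusted p = 0.019; rho = 0.398, adjusted p = 0.0012), with 0.103, 0.675 and 0.448 within the runs (p = 0.644, 0.00486 and 0.00253). A coefficient as strong was reached by 16.6% of genes with *Slc1a3* and 30.4% with *S100b*. *S100b* was inversely related to *Slc1a2* by Pearson correlation (r = -0.368, permutation adjusted p = 0.00792) but not by Spearman correlation (rho = -0.208, adjusted p = 0.138). Without the 2 rats farthest from the median of *Slc1a2*, r was -0.243 and did not pass (permutation p = 0.0521, adjusted p = 0.0977). The call was kept in each repeat that left out 1 rat (highest permutation adjusted p = 0.0351). The sign was negative in all 3 runs (-0.491, -0.399 and -0.251, with unadjusted permutation p = 0.0363, 0.14 and 0.102). As strong a coefficient was reached by 25.3% of genes with *Slc1a2* and 20.8% with *S100b*. The relations of *Aqp4* to *S100b* (r = 0.132, adjusted p = 0.38) and to *Glul* (r = 0.212, adjusted p = 0.142) did not pass.

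**Figure D4:**
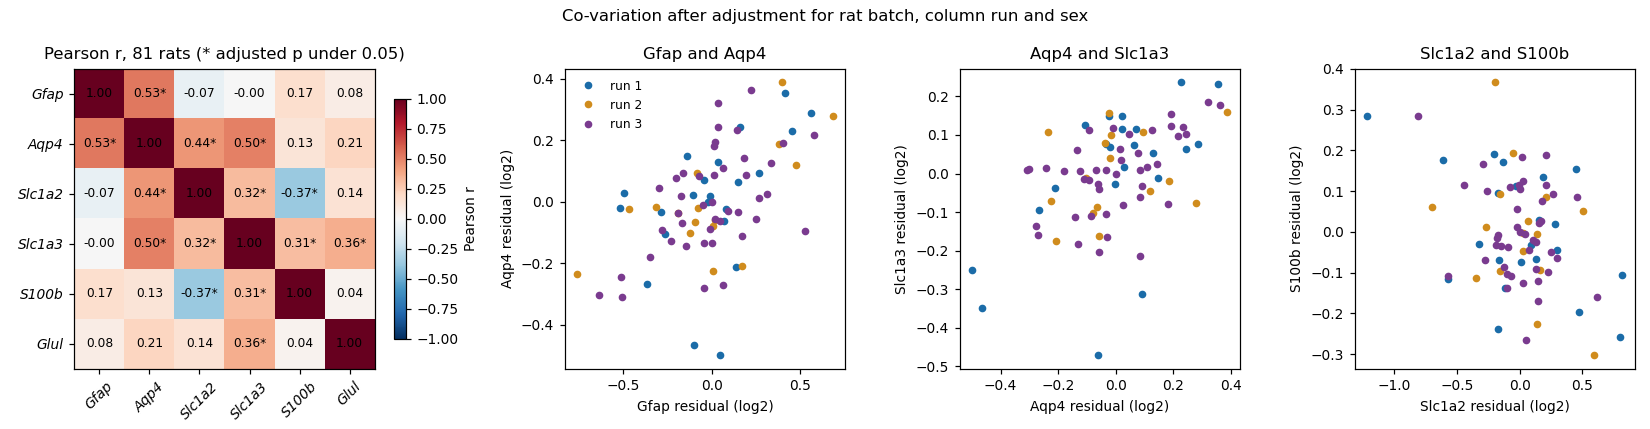
Pearson r between the 6 astrocyte genes over 81 rats on log2 values after removal of rat batch, column run and sex (left, colour scale from -1 to 1, asterisk for an adjusted permutation p under 0.05), and these residuals for 3 pairs (right, log2 units, 1 point per rat, coloured by run). *Aqp4* has coefficients of 0.53 with *Gfap* and 0.50 with *Slc1a3*, the coefficient of *Gfap* with *Slc1a3* is at 0, and that of *Slc1a2* with *S100b* is negative.

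No single axis carried the 6 genes. The first principal component of their standardized residuals held 35.4% of the variance and the second 23.9%. All loadings on the first had the same sign, the greatest for *Aqp4* (0.60) and *Slc1a3* (0.52) and the least for *S100b* (0.16). Of the other genes whose log2 level averaged 5 or more, the one most like the mean of the 6 standardized genes was ENSRNOG00000004613 (r = 0.695 over 81 rats, mean log2 value 12.52), and the one most like *Gfap* was ENSRNOG00000016957 (r = 0.735, mean log2 value 9.24). These are given by identifier, as no table at hand pairs them with a symbol, and as a description without a test.

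The promoters of *Gfap* and *Slc1a3* are shown because these 2 genes each followed *Aqp4* and not one another. Each sequence is the 250 bases before the first listed transcription start in RefSeq (build GRCr8, not the Rnor_6.0 build of the expression data), at chr10:88361662-88361911 on the minus strand for *Gfap* and chr2:59557809-59558058 on the minus strand for *Slc1a3*, read 5′ to 3′ along the gene. Capitals mark matches to TTGGC, a half-site of the nuclear factor I family, which here reads GCCAA on the printed strand.
Gfap: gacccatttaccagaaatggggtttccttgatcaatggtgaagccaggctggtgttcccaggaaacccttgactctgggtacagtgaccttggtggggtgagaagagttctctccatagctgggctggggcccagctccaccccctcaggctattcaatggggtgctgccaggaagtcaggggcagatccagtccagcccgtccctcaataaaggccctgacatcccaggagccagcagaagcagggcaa
Slc1a3: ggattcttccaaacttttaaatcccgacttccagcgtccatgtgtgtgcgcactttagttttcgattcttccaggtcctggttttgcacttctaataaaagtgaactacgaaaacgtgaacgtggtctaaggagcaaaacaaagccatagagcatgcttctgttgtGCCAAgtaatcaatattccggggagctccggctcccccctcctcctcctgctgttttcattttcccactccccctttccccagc
The windows of all 6 genes were searched on both strands for TTGGC and for the letters commonly bound by STAT factors (TTCNNNGAA) and by AP-1 (TGANTCA). A match to TTGGC was found in the windows of 2 of the 6, *Slc1a3* and *S100b*, and in 40.3% of the 27457 windows in the table. TTCNNNGAA and TGANTCA, present in 7.52% and 6.36% of all windows, were found in 0 of the 6.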

How the data were processed

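Polyadenylated RNA of the IL was sequenced in 88 rats. The labels mark 7 libraries as removed by the authors (a genotype mismatch in 3, an outlying expression profile in 2, few reads in 1 and many zero counts in 1), and these were not analysed here. The authors trimmed the reads with cutadapt, estimated read counts per gene with RSEM on the Ensembl rat transcriptome (the submitters' processing notes name Rnor_6.0), applied the upper-quartile adjustment with DESeq2 and deposited log2 values of the adjusted count plus 1. Versions were not given in the sources used here. RSEM divides reads shared between genes by estimated proportions. No row of the 6 genes was identical to another gene's, which does not show whether they share reads with other genes. Positions in Rnor_6.0 were not used here.

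Because the values are rounded and adjusted, no count model was used. Depth was the adjusted total (16.9 to 20.0 M, M being 10 to the power of 6) divided by the number of adjusted counts that 1 read was worth, which in 40 simulated libraries was within 1% of the truth in 100%. These libraries were made as the estimate assumes, from whole reads times 1 factor, so this does not show its accuracy in the real libraries. Linear models were fitted to all 17252 genes with limma 3.58.1 in R 4.3.3 (lmFit, and eBayes with an intensity trend), two-sided, with Benjamini-Hochberg adjustment and a threshold of 0.05. Correlations were computed with numpy 2.4.6. In simulated pairs, 6.0% of 200 with a true r of 0 had a p under 0.05, as had 75.5% of those with 0.3 and 99.5% of those with 0.5. The limma tests were also tested on simulated data. Each library is 1 rat, so p-values measure the spread between rats.

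The 6 genes, the lists and the tests were chosen with earlier results of these data known. Named genes are the 6 and, by rule, the gene most like their mean and the gene most like *Gfap*, limited to 2 identifiers. Lists of other astrocyte genes and of markers of neurons, oligodendrocytes, microglia and vessels were not run, because the reference matched 0 identifiers to a symbol, so the part of other cell types was not tested. The alternatives were filters, moderation, pseudocount 10, median centring, quantile normalization, depth, other covariates, and subsets by batch, run and rat. Leaving out single rats, and the sexes within single batches or runs, were added after seeing the data.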

Additional observations from a re-analysis of the deposited data

Results flagged for a closer look

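Of 24 combinations of gene and group of 4 to 10 rats, 1 had a rat far from the others by Dixon's criterion. *Slc1a3* in rat 22 of batch 3, a library of 14.3 Mreads, was 12.97, while the other 6 rats of batch 3 in run 1 lay between 13.38 and 13.59. The gap was 0.659 of the range of these 7 rats (critical value 0.568). Chance flags about 1 in 20 groups.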

How the results depend on the processing

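No paired analysis was possible because the libraries are of different rats and their numbers are only names. The number of the 6 genes that differed between rat batches was 1 with run as a further covariate, 0 in run 1 alone and 1 in run 3 alone. Between column runs it was 1 under quantile normalization (16.3% of all genes), 5 with sex as the only covariate (61.4% of all genes) and 1 in batch 3 alone, and between the sexes 1 without a covariate. The number of co-varying pairs was 3, 3 and 4 within runs 1, 2 and 3, which hold fewer rats, and 6 to 8 when 1 rat was left out. Without adjustment the spread was 0.219 for *Aqp4*, 0.362 for *Gfap*, 0.214 for *Glul* and 0.454 for *Slc1a2*, and by the scaled median absolute deviation 0.161, 0.235, 0.156 and 0.248.

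The *Gfap* difference between batches was lost without batch 2 (limma adjusted p = 0.0558), that of *Aqp4* without batch 3 (0.181) and that of *Glul* without batch 6 (0.311). In these fits 53.8%, 41.9% and 49% of all genes passed. *Slc1a3* passed under quantile normalization (0.00226), where 57% of all genes did, and *S100b* under median centring (0.0287), where 58.4% did. Directions that turned between batches were those of *Aqp4* (-0.0115) and *Slc1a3* (-0.0769) with run as a covariate and of *S100b* (0.0466) under quantile normalization. Between runs, *Glul* turned under quantile normalization (0.0943) and *S100b* with sex as the only covariate (-0.0535). The male minus female difference turned for *Slc1a2* with run as a covariate (-0.0098), without a covariate (-0.0802), without batch 3 (-0.0856), without batch 6 (-0.0185), in batches 2 and 4 alone (-0.2576 and -0.1369) and in runs 1 and 3 alone (-0.2583 and -0.0042). For *Glul* it turned without batch 3 (-0.0262), without batch 4 (-0.0135), in batches 2 and 6 alone (-0.0545 and -0.1457) and in run 3 alone (-0.005). *Gfap* turned in batch 2 and run 1 (-0.1033 and -0.0623), as did *Aqp4* (-0.1049 and -0.1263), *Slc1a3* in batch 3 (0.051) and *S100b* in run 2 (-0.0999). The near-zero r of *Gfap* and *Slc1a3* turned positive without the 2 farthest rats (0.0485), by Spearman (0.0055), without run as a term (0.009), with depth as a term (0.0017), under quantile normalization (0.0842) and in runs 1 and 3 (0.0547 and 0.1406). The r of *S100b* and *Glul* turned without the library of lowest depth (-0.0015), under quantile normalization (-0.0279) and in runs 1 and 3 (-0.0016 and -0.009), and that of *Gfap* and *Slc1a2* by Spearman (0.0096). Without adjustment the calls of *Gfap* and *Aqp4* (r = 0.263, permutation adjusted p = 0.0928) and of *Slc1a3* and *Glul* (0.219, 0.0769) were lost, and r was -0.026 for *Aqp4* and *Glul* and -0.1608 for *Slc1a2* and *Glul*. In run 2 alone r turned for *Aqp4* and *Slc1a2* (-0.307), *Gfap* and *Glul* (-0.4231), *Gfap* and *S100b* (-0.2768), *Slc1a2* and *Glul* (-0.2482) and *Slc1a2* and *Slc1a3* (-0.3051). The causes were not tested. Over all alternatives, including those above, 62 counts and spreads stayed close to the main value and 18 moved. Close meant a similar count, or a spread within its jackknife SE. Of the single values, 386 were labelled unchanged and 43 turned direction. Without turning, 27 lost their call and 12 gained one. The 386 include the shares of genes with a smaller spread in a wider window of level, which hold no call.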

Other observations

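The single rat of batch 5, which entered no comparison of batches, had log2 values of 11.17 for *Gfap*, 12.41 for *Aqp4*, 10.57 for *Slc1a2*, 13.58 for *Slc1a3*, 13.89 for *S100b* and 14.36 for *Glul*.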
